A study of Rattus norvegicus with 4 samples.

Results

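Oxidative phosphorylation is described here by complex in laser-captured neurons of the rat vestibular ganglion. The members were the probes whose single platform symbol names a subunit of complex I (Nduf), II (Sdha to Sdhd), III (Uqcr and Cyc1), IV (Cox with a number) or V (Atp5), cytochrome c (Cycs), or an assembly factor with the same prefixes. Of 35126 probes, 105 met this rule, for 82 genes. The names of 93 could be tied to a value, which left 82 distinct probes of 73 genes, because the 15 Sdha spots are repeats of 4 probes. The other 12 lie in a stretch of the table whose names were not read, and 9 genes have no other probe: they are not analysed here.

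The calretinin-positive group had 2 arrays and the calretinin-negative group had 2. Calretinin, encoded by Calb2, is a calcium-binding protein whose immunofluorescence guided the capture. The design text calls the positive cells calyceal primary afferents and the negative cells dimorphic and bouton afferents. Captured cells were pooled, and their total RNA was hybridised to 1-colour (Cy5) arrays. The sources used here do not give strain, age, sex, treatment or the number of animals, and no label says that the 2 arrays of a group came from separate animals, so p-values measure the spread between these arrays, which may be technical. Titles set the groups, since both negative samples carry a description worded for positive cells.

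Complexes I to IV form the electron transport chain of the inner mitochondrial membrane. Complex I takes electrons from NADH and complex II from succinate, complex III hands them to cytochrome c, and complex IV passes them to oxygen. Complexes I, III and IV pump protons, and complex V, the ATP synthase, uses the gradient to make ATP. Neurons that fire at high rates are known for a high demand for ATP. Some core subunits are encoded by mitochondrial DNA. All members described here are nuclear genes.

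Calb2 itself, which marks the capture and is not a result, had intensities of 291 and 328 on the positive arrays, against 138 and 129 on the negative arrays. The 4 array medians lay between 0.9896 and 0.99155 on the deposited scale, and the SD of log2 intensity between arrays of a group was 0.0877 for the positive and 0.0802 for the negative arrays over probes with a mean log2 intensity above 4. Glial markers were lower on the positive arrays. The summed intensity of the oligodendrocyte list was 5.03 and 5.97 on the positive arrays, against 134 and 137 on the negative arrays, and 4 of its 4 tested probes fell. That of the Schwann and satellite cell list was 123 and 113, against 226 and 242 on the negative arrays (5 of 5 fell), most of it from Prx (113 and 101, against 191 and 207). The astrocyte list summed to 124 and 137, against 246 and 247 (4 of 4 fell). On the positive arrays most of this was Slc1a3 (121 and 134, against 150 and 144). Gfap had 1.10 and 0.991 on the positive arrays, against 42.8 and 46.2 on the negative arrays. The brighter Aqp4 probe had 0.344 and 0.603, against 48.4 and 51.7. The endothelial and mural list summed to 26.45 and 26.25, against 55.3 and 56.6 (6 of 8 fell). The blood and immune list summed to 62.7 and 66.8 on the positive arrays, against 133 and 145 on the negative arrays (3 of 4 fell and 1 rose), and the fibroblast list to 186 and 181, against 128 and 136 (1 of 5 rose and 2 fell). The fibroblast probe that rose was Ogn, the largest part of this sum (124 and 111, against 53.4 and 56.9). Those that fell were Dcn (7.75 and 9.22, against 16.6 and 16.5) and a Col1a1 probe (19.2 and 20.7, against 22.7 and 24.4). The neuron list summed to 360.0 and 348 on the positive arrays, against 282 and 282 on the negative arrays. Of its 7 tested probes, 5 were higher and 1 lower as deposited, and 3 were higher and 1 lower after quantile or cyclic loess normalization. The largest part of the sum was Uchl1, with 202 and 190, against 165 and 169, which did not pass after quantile normalization (adjusted p = 0.496). Nefm (log2 change 0.58), Nefh (1.62) and the dimmer Stmn2 probe (1.45) were higher under all 3 scalings. The dimmer Gap43 probe was lower under all 3 (-1.62). The brighter probes of Stmn2 (0.26) and Gap43 (0.12) did not pass after quantile normalization. The Snap25 probe of this list stayed below the dim limit on all 4 arrays. Over all tested probes, 40.8% were higher and 23.8% lower as deposited, and 33.2% and 29.1% after quantile normalization. These lists move with the groups alongside every result that follows, and their part in those results was not tested. In pooled captured cells, fewer cells of a type and less RNA per cell cannot be told apart.

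Most of the tested members were brighter on the calretinin-positive arrays as deposited, and few were dimmer. Of the 82 probes, 74 (67 genes) passed the filter on dim probes, and 47 of these were higher (63.5%) and 4 lower (5.41%) at an adjusted p under 0.05. Over all 20997 tested probes, 64.6% were called in the same fit, 40.8% higher and 23.8% lower. The median log2 change of the tested members, positive minus negative, was 0.27, against 0.11 for all tested probes, and it ranged from -0.61 to 1.77. Both positive arrays lay above both negative arrays for 54 members and below them for 10, against 49.8% and 31.9% of all tested probes. An exact permutation test of 2 arrays against 2 cannot give a p below 0.333. The calls of this fit use a spread shared across probes in limma, and fewer members passed when each probe was tested on its own spread.

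The share of higher members depended on the scaling. After quantile normalization 24 members were higher (32.4%) and 13 lower (17.6%), with a median log2 change of 0.07, against 33.2% higher and 29.1% lower over all tested probes (62.3% called), whose median change moved to 0.01. After cyclic loess 24 were higher and 14 lower, against 31.9% and 32.6% of all tested probes (64.5% called). The share of higher members was therefore near the background on both rescaled sets, and it was above it only on the values as deposited. The same 24 probes rose under all 3 scalings, against 31.4% of all tested probes, and the same 4 fell, against 23.4%. A further 9 members were not called as deposited and lower after quantile normalization, and 0 members were higher as deposited and lower after it.

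**Figure D1:**
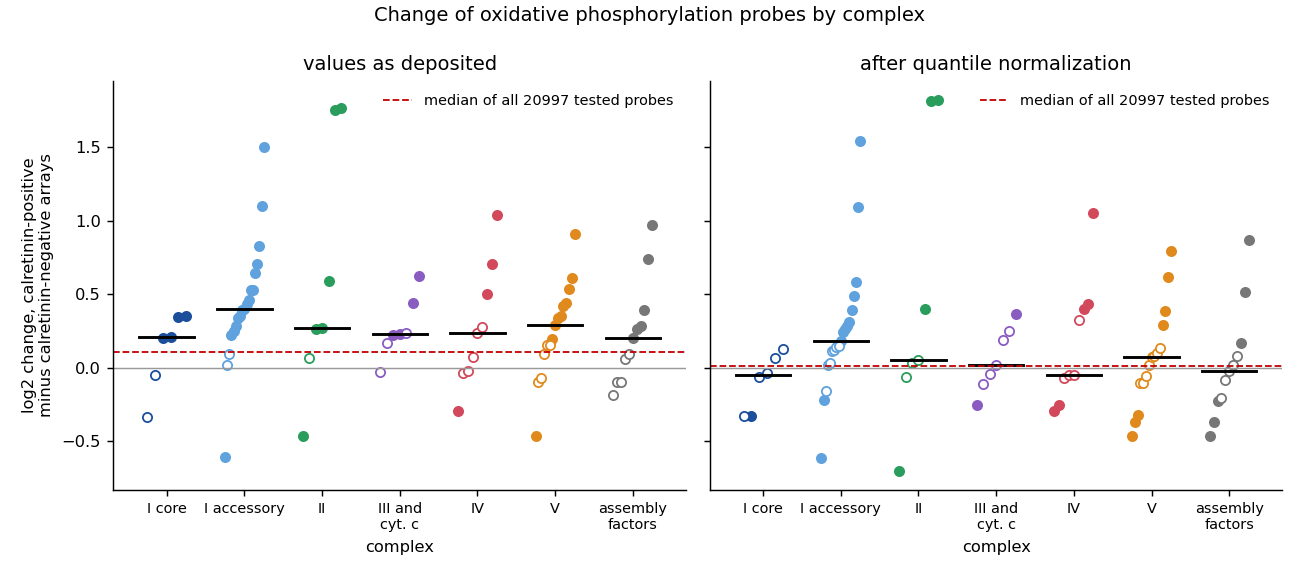
Log2 change of each tested member probe (calretinin-positive minus calretinin-negative arrays, n = 2 each) by complex, as deposited (left) and after quantile normalization (right). Filled points passed an adjusted p of 0.05, open points did not, black bars are medians by complex and the dashed line is the median of all 20997 tested probes. The median of the complex I accessory subunits is 0.40 on the left and 0.18 on the right, and those of complexes II, III and V are 0.27, 0.23 and 0.29 on the left and 0.05, 0.02 and 0.08 on the right.

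The promoters of a few members are shown as context for the genes that the results turn on: in each complex, the gene among those whose brightest probe was higher under all 3 scalings whose promoter holds the most bases of 4 searched motifs, with ties (Ndufb4 with Ndufs5, Atp5mf with Atp5f1c) settled by the smaller p, and Sdhc, the member with a mean log2 intensity above 4 that was lower. This choice was made after the values were seen. The motifs, searched on both strands, were GCGCNTGCG for NRF1, CCGGAAG for ETS factors such as GABPA, AANATGGCG for YY1 and AAGGTCA for ERRA, regulators known to act at many genes of this kind. Each sequence is the RefSeq promoter in GRCr8, 300 bases around the gene's start, written 5′ to 3′ along the gene, with motif matches in capitals. Ndufs5 lies at chr5:141264353-141264652 (minus strand), Sdha at chr1:30764303-30764602 (plus strand) and Uqcrh at chr5:134790833-134791132 (minus strand). Cox4i1 lies at chr19:65630133-65630432 (plus strand), Atp5f1c at chr17:73333435-73333734 (plus strand) and Sdhc at chr13:86097976-86098275 (minus strand).
Ndufs5: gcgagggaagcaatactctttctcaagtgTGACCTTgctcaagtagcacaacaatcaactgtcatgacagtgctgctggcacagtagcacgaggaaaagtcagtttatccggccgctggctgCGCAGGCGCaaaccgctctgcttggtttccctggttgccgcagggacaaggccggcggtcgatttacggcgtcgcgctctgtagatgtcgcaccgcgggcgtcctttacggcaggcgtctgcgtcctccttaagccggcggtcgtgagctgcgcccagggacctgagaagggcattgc
Sdha: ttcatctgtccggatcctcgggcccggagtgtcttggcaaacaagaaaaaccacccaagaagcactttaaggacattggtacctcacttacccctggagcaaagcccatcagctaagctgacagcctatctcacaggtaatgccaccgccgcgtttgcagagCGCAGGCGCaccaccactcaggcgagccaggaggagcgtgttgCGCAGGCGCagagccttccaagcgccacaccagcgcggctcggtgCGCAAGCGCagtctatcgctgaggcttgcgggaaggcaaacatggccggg
Uqcrh: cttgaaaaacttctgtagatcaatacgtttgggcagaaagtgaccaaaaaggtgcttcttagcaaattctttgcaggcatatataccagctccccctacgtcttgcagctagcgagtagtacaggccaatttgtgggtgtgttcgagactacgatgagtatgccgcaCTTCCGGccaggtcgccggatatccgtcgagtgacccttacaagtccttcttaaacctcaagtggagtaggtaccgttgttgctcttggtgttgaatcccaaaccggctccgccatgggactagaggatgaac
Cox4i1: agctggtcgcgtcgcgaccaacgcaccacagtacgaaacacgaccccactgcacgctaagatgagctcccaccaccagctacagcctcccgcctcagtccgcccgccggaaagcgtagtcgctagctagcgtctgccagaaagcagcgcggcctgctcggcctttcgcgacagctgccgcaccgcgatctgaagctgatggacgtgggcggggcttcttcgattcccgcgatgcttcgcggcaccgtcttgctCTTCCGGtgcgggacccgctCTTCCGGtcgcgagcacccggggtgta
Atp5f1c: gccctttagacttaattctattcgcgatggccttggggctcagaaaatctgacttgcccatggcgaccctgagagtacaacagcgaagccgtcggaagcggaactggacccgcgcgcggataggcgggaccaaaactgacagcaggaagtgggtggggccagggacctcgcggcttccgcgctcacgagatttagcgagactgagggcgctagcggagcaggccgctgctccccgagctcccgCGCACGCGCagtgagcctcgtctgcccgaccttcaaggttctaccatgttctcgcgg
Sdhc: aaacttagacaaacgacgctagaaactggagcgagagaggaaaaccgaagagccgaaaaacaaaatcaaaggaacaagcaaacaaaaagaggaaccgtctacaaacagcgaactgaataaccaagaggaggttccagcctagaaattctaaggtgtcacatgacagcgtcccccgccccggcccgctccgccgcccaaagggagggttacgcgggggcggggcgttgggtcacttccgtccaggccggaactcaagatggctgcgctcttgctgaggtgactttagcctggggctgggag

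The Ndufs5 promoter holds 1 NRF1 and 1 ERRA match, that of Sdha 3 NRF1 matches, that of Uqcrh 1 ETS match, that of Cox4i1 2 ETS matches and that of Atp5f1c 1 NRF1 match. The Sdhc window holds none of the 4 letter strings, which says nothing of the factors. Among the 65 member genes with a promoter in the table, 21 hold the NRF1 string (32.3%), 18 the ETS string (27.7%), 14 the YY1 string (21.5%) and 9 the ERRA string (13.8%). Over all 27457 promoters the shares are 6.34%, 9.22%, 3.33% and 4.37%. At least 1 of the 4 occurs in 45 member promoters (69.2%), against 20.5% of all promoters, and the median GC content is 56.3%, against 52.3%. For 22 member promoters the gene had at least 1 probe higher under all 3 scalings. Of these, 9 hold the NRF1 string, 4 the ETS string, 3 the YY1 string and 3 the ERRA string. They include Atp5po (NRF1) and Atp5f1b (YY1), whose brighter probes were not higher under all 3 scalings. A match is a description of the letters and was not tied to binding here.

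Complex I had the most probes. Of its 25 tested probes, 20 were higher (80%) and 1 lower as deposited (median log2 change 0.35), against 40.8% and 23.8% of all tested probes. Most of the 25 had a mean log2 intensity above 4, where 55.0% of all tested probes were higher and 11.0% lower. After quantile normalization 10 were higher (40%) and 3 lower (median 0.12), against 33.2% and 29.1%. The accessory subunits, which surround the catalytic core and stabilise it, gave 16 higher and 1 lower of 19 as deposited, and 10 higher (52.6%) and 2 lower after quantile normalization. The core subunits, which carry the flavin and the iron-sulfur clusters, gave 4 higher and 0 lower of 6 as deposited. After quantile normalization 0 core probes were higher and 1 was lower, where limma had called 33.2% of all tested probes higher. The difference between accessory and core subunits was not tested.

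Ndufb6, an accessory subunit of the membrane arm, had intensities of 46.4 and 50.4 on the positive arrays, against 29.3 and 25.2 on the negative arrays. Its log2 change was 0.83 ± 0.09 (SE), with an adjusted p of 1.01e-05, and 0.59 after quantile normalization (adjusted p = 0.000166). Ndufs5, another accessory subunit, had 273 and 291 on the positive arrays, against 185 and 175 on the negative arrays, a log2 change of 0.65. Neither pair of groups overlapped. Ndufb1 had 30.0 and 31.6 on the positive arrays, against 20.3 and 17.5 on the negative arrays, a log2 change of 0.71. Ndufb4 had 162 and 148 on the positive arrays, against 112 and 103 on the negative arrays, a log2 change of 0.53, and Ndufa1, an accessory subunit encoded on the X chromosome in mammals, had 174 and 179, against 116 and 129, also 0.53. These 5 genes and Ndufa3 (log2 change 0.46), Ndufb2 (0.43) and Ndufb10 (0.39) were higher under all 3 scalings.

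Ndufc1 and Ndufv3, both with dim probes, had the largest log2 increases of complex I. Ndufc1, a small accessory subunit, had 2.55 and 2.74 on the positive arrays, against 1.28 and 1.19 on the negative arrays, a log2 change of 1.10 ± 0.10. Ndufv3, an accessory protein of the flavoprotein fragment, had 1.83 and 1.61 on the positive arrays, against 0.623 and 0.588 on the negative arrays, a log2 change of 1.50 ± 0.14. Both were higher under all 3 scalings. Ndufa9, an accessory subunit near the quinone site, went the other way with 1.66 and 1.96 on the positive arrays, against 2.63 and 2.86 on the negative arrays, a log2 change of -0.61 ± 0.10 (adjusted p = 0.000433) and -0.61 after quantile normalization. It was the complex I probe that fell as deposited.

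The core subunits moved by small amounts. Ndufs3, which lies next to the iron-sulfur clusters, had 211 and 208 on the positive arrays, against 166 and 163 on the negative arrays, a log2 change of 0.35 (adjusted p = 0.00139) that came to 0.07 after quantile normalization (adjusted p = 0.409). Ndufv2, an iron-sulfur protein, had 34.9 and 29.2 on the positive arrays, against 26.5 and 23.7 on the negative arrays (log2 change 0.35, and 0.12 after quantile normalization). Ndufv1, which binds NADH and the flavin, had 42.8 and 39.7 on the positive arrays, against 35.2 and 36.5 on the negative arrays, a log2 change of 0.20 that turned to -0.04 after quantile normalization and did not pass the test without positive replicate 1 (adjusted p = 0.158) or negative replicate 1 (0.110). Without positive replicate 1 the Ndufv2 change did not pass either (adjusted p = 0.0585). Ndufs1, the largest iron-sulfur subunit, had 148 and 156 on the positive arrays, against 141 and 122 on the negative arrays (log2 change 0.21, adjusted p = 0.0499), and -0.06 after quantile normalization. Ndufs7, which holds the last iron-sulfur cluster before the quinone, had 65.3 and 65.6 on the positive arrays, against 68.4 and 66.8 on the negative arrays. Its log2 change of -0.05 did not pass the test as deposited (adjusted p = 0.568), and it was -0.33 after quantile normalization (adjusted p = 0.00134).

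Among the accessory subunits, 2 did not pass the test as deposited. Ndufb8 had 374 and 368 on the positive arrays, against 352 and 344 on the negative arrays, a log2 change of 0.09 (adjusted p = 0.314). Ndufa2 had 37.2 and 31.5 on the positive arrays, against 33.4 and 34.1 on the negative arrays, so that the groups overlapped, and after quantile normalization it was lower by the test (log2 change -0.22, adjusted p = 0.0483). The other 6 higher accessory probes had log2 changes between 0.22 (Ndufs4) and 0.40 (Ndufb7) and did not pass the test after quantile normalization. Ndufa13 and a second Ndufs4 probe were below the dim limit in their mean and were not tested. This Ndufs4 probe had 0.878 and 1.12 on the positive arrays, against 0.133 and 0.176 on the negative arrays.

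**Figure D2:**
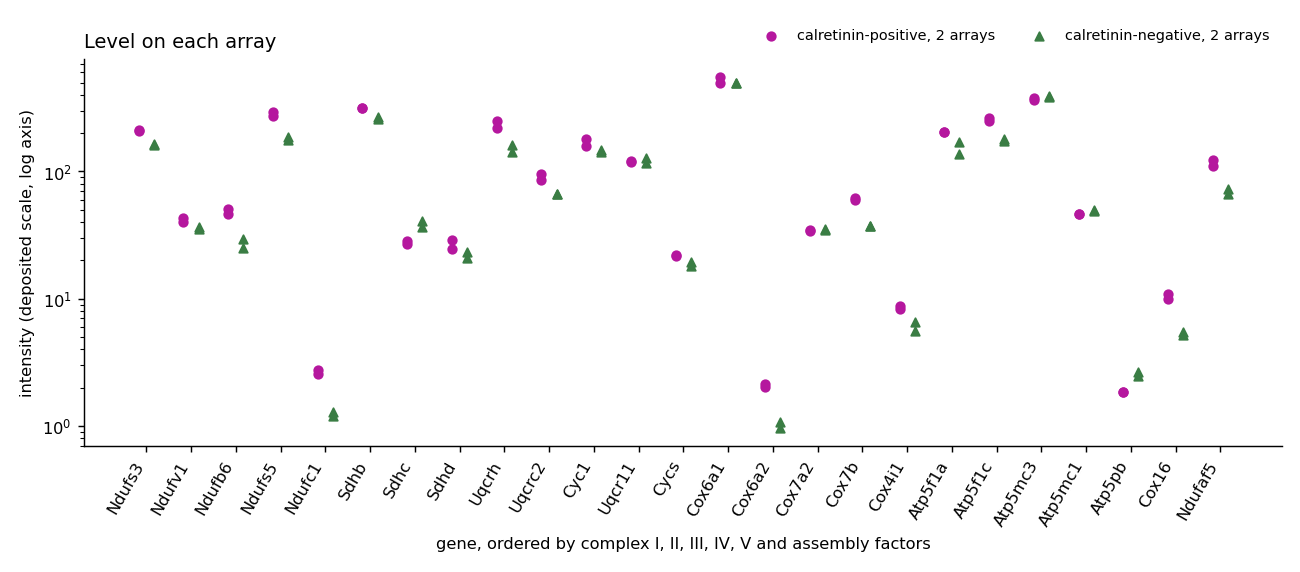
Intensity on each of the 2 calretinin-positive (circles, left of each gene) and 2 calretinin-negative arrays (triangles, right), on the deposited scale with a log axis, for 25 members ordered by complex. Points of a group lie close together. Sdhc, Cox7a2, Atp5mc1, Atp5mc3 and Atp5pb are the genes shown whose positive arrays both lie below the negative arrays.

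Complex II is a small complex that also serves the citric acid cycle, and its calls went in both directions. As deposited 5 of 7 probes were higher (71.4%) and 1 lower (14.3%), against 40.8% and 23.8% of all tested probes. After quantile normalization 3 were higher (42.9%) and 1 lower (14.3%), against 33.2% and 29.1%. Of the 7 probes 4 are of Sdha, and the 3 higher after quantile normalization are all of this gene. The dimmest of these, counted in both shares, passed the filter on dim probes only through its positive arrays. Sdhb, the iron-sulfur subunit, had 313 and 315 on the positive arrays, against 266 and 257 on the negative arrays, a log2 change of 0.26 ± 0.07 (adjusted p = 0.00966) that came to 0.03 after quantile normalization. Sdhd, a membrane anchor, had 28.9 and 24.7 on the positive arrays, against 23.4 and 21.0 on the negative arrays, a log2 change of 0.27 and 0.05 after quantile normalization. Sdhc, the other membrane anchor, had 28.6 and 27.1 on the positive arrays, against 36.4 and 40.5 on the negative arrays. Its log2 change was -0.46 ± 0.08 (adjusted p = 0.000286) and -0.70 after quantile normalization (adjusted p = 2.78e-05). The 2 anchors thus had calls in opposite directions as deposited, although Sdhd did not pass the test after quantile normalization. Without negative replicate 2, Sdhb (adjusted p = 0.0622) and Sdhd (0.120) did not pass, and 3 complex II probes in place of 5 were higher; Sdhd also did not pass without positive replicate 1 (0.159).

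Sdha, the flavoprotein subunit, was read with 4 different probes, each spotted 3 or 4 times on the array. The brightest had geometric means of 19.5 and 18.5 on the positive arrays, against 14.1 and 11.3 on the negative arrays, a log2 change of 0.59 with single spots between 0.53 and 0.68. Another had 10.1 and 10.2 on the positive arrays, against 9.70 and 9.69 on the negative arrays, a log2 change of 0.07 that did not pass the test (adjusted p = 0.394). The dimmer ones had 1.85 and 1.74 on the positive arrays, against 0.549 and 0.507 on the negative arrays (log2 change 1.77, single spots between 1.09 and 2.17), and 1.29 and 1.25, against 0.460 and 0.309 (1.75). For the last probe 1 negative array was below the dim limit of 0.455. Its negative mean of 0.385 was also below this limit, so it passed the filter on dim probes only through its positive arrays. The probes of this gene therefore give log2 changes from 0.07 to 1.77. Under all 3 scalings 3 of the 4 were higher, the last probe among them.

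Complex III with cytochrome c had 4 higher and 0 lower of 7 tested probes as deposited (57.1% higher, against 40.8% of all tested probes), and 1 higher and 1 lower after quantile normalization (14.3% each, against 33.2% and 29.1%). Most of these probes had a mean log2 intensity above 4, and 55.0% of all tested probes in that range were higher as deposited. Uqcrh, the hinge protein that helps cytochrome c1 pass electrons on, had 248 and 219 on the positive arrays, against 142 and 161 on the negative arrays. Its log2 change was 0.62 ± 0.09 (adjusted p = 0.000132) and 0.36 after quantile normalization (adjusted p = 0.0107), and it was the member of this complex that rose under all 3 scalings. Uqcrc2, a core protein without a redox centre, had 94.7 and 85.9 on the positive arrays, against 66.8 and 66.3 on the negative arrays, a log2 change of 0.44, with 0.19 after quantile normalization (adjusted p = 0.0740). Its partner Uqcrc1 had 202 and 202 on the positive arrays, against 178 and 180.4 on the negative arrays, a log2 change of 0.17 that did not pass the test (adjusted p = 0.0565).

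The redox proteins Cyc1 and Cycs were higher by small amounts as deposited (adjusted p = 0.0289 and 0.0137). They did not pass the test after quantile normalization (adjusted p = 0.649 and 0.846). Cyc1, cytochrome c1, had 178.5 and 159.8 on the positive arrays, against 148 and 141 on the negative arrays, a log2 change of 0.23 that was -0.04 after quantile normalization. Cycs, the mobile carrier cytochrome c, had 21.8 and 22.2 on the positive arrays, against 19.5 and 18.1 on the negative arrays, a log2 change of 0.23 and 0.02 after quantile normalization. Uqcr11 had 119 and 120.3 on the positive arrays, against 117 and 127 on the negative arrays, with overlapping groups, and was lower by the test after quantile normalization (log2 change -0.25, adjusted p = 0.0107). Uqcrb had a log2 change of 0.24 that did not pass the test. Without negative replicate 2, Cyc1 (adjusted p = 0.125) and Cycs (0.0999) did not pass, which left 2 higher probes in place of 4, and without positive replicate 1 Cyc1 did not pass (0.209).

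Complex IV had the smallest share of higher members as deposited, 3 of 9 (33.3%, against 40.8% of all tested probes), with 1 lower (11.1%, against 23.8%). After quantile normalization also 3 were higher (33.3%) and 2 lower (22.2%), against 33.2% and 29.1% of all tested probes. Cox7b, a small accessory subunit, had 61.9 and 59.7 on the positive arrays, against 37.5 and 37.0 on the negative arrays. Its log2 change was 0.71 ± 0.07 (adjusted p = 5.52e-06) and 0.44 after quantile normalization (adjusted p = 0.000235). Cox4i1, the common form of the regulatory subunit IV, had 8.81 and 8.26 on the positive arrays, against 6.57 and 5.54 on the negative arrays, a log2 change of 0.50 and 0.40 after quantile normalization. Cox6c had a log2 change of 0.24 that did not pass the test (adjusted p = 0.0881).

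Several complex IV subunits exist as a common form and a form known from heart and skeletal muscle. Cox6a1, the common form of subunit VIa, had 495 and 554 on the positive arrays, against 499.6 and 494 on the negative arrays, with overlapping groups and a log2 change of 0.08 (adjusted p = 0.464). Cox6a2, the muscle form, had 2.03 and 2.14 on the positive arrays, against 1.07 and 0.955 on the negative arrays, a log2 change of 1.04 ± 0.11 (adjusted p = 1.55e-05) and 1.05 after quantile normalization. The striated muscle list summed to 12.2 and 12.2 on the positive arrays, against 14.5 and 15.9 on the negative arrays, with 2 of its 4 tested probes higher and 2 lower. Its probes for Ckm, Mb, Myh1, Myh4 and Myh7 were below the dim limit on all 4 arrays.

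Of the other isoforms of complex IV, 1 passed the test as deposited, and it was lower. Cox7a2, the common form of subunit VIIa, had 34.4 and 34.4 on the positive arrays, against 35.3 and 34.6 on the negative arrays, a log2 change of -0.02 that was -0.25 after quantile normalization (adjusted p = 0.00568). Cox8b, a muscle form of subunit VIII, had 3.37 and 3.46 on the positive arrays, against 3.73 and 3.28 on the negative arrays, with a log2 change of -0.03 and overlapping groups. The Cox8a probe that could be read had both positive arrays above both negative arrays and a log2 change of 0.28 that did not pass the test (adjusted p = 0.240), and Cox8c, known from testis, was below the dim limit on all 4 arrays. Cox6b2, also known from testis, had 1.25 and 1.41 on the positive arrays, against 1.65 and 1.62 on the negative arrays, and was lower by the test (log2 change -0.30, adjusted p = 0.0378) under all 3 scalings. It did not pass without positive replicate 1 (adjusted p = 0.171), negative replicate 1 (0.107) or negative replicate 2 (0.0865).

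In complex V, 9 of 15 tested probes were higher (60%, against 40.8% of all tested probes) and 1 was lower as deposited. Most of the 15 had a mean log2 intensity above 4, a range where 55.0% of all tested probes were higher. After quantile normalization 4 were higher (26.7%) and 3 lower (20%), both below the shares over all tested probes (33.2% and 29.1%). Among the subunits of the catalytic head and its shaft, Atp5f1c, the gamma subunit that turns inside the head, had 248 and 262 on the positive arrays, against 173 and 179 on the negative arrays. Its log2 change was 0.53 ± 0.08 (adjusted p = 0.000106) and 0.29 after quantile normalization (adjusted p = 0.00366). Atp5f1a, the alpha subunit, had 205 and 205 on the positive arrays, against 170.0 and 138 on the negative arrays, a log2 change of 0.42, with 0.14 after quantile normalization (adjusted p = 0.233). Atp5f1d, the delta subunit, and Atp5f1e, the epsilon subunit, had log2 changes of 0.35 and 0.34 and did not pass the test after quantile normalization.

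In the membrane ring of the synthase, the 3 genes for the same c subunit of the ring did not pass the test as deposited. Atp5mc3 had 363 and 379.6 on the positive arrays, against 386 and 394 on the negative arrays (log2 change -0.07, and -0.32 after quantile normalization, adjusted p = 0.00208). Atp5mc1 had 46.1 and 46.3 on the positive arrays, against 49.7 and 49.3 on the negative arrays (log2 change -0.10, and -0.37 after quantile normalization, adjusted p = 0.000598). Atp5mc2 had 5.99 and 6.68 on the positive arrays, against 5.77 and 6.09 on the negative arrays, with overlapping groups. Of the stalk, Atp5pb, subunit b, had 1.85 and 1.84 on the positive arrays, against 2.46 and 2.65 on the negative arrays, a log2 change of -0.47 (adjusted p = 0.00086) and -0.46 after quantile normalization. Atp5pd, subunit d, was higher as deposited (log2 change 0.29), and Atp5pf, coupling factor 6, had 0.16 and did not pass the test. Atp5mf, subunit f of the membrane part, had 5.84 and 5.25 on the positive arrays, against 4.38 and 3.80 on the negative arrays, a log2 change of 0.44, and was higher under all 3 scalings.

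Genes with more than 1 probe did not always give the same answer. Atp5f1b, the catalytic beta subunit, had 210.4 and 229 on the positive arrays, against 198 and 196 on the negative arrays, at its brighter probe, where the log2 change of 0.16 did not pass the test (adjusted p = 0.0955). Its dimmer probe had 12.2 and 11.1 on the positive arrays, against 6.53 and 5.85 on the negative arrays, a log2 change of 0.91 (adjusted p = 3.1e-06) that was higher under all 3 scalings. Atp5po, the stalk protein OSCP, had 42.9 and 46.0 on the positive arrays, against 37.5 and 40.1 on the negative arrays, at its brighter probe (log2 change 0.20, and -0.06 after quantile normalization), and this did not pass without positive replicate 2 (adjusted p = 0.172) or negative replicate 1 (0.173). Its dimmer probe had 1.52 and 1.36 on the positive arrays, against 1.003 and 0.879 on the negative arrays, a log2 change of 0.61. A second probe of Ndufs7 had 0.754 and 0.886 on the positive arrays, against 0.949 and 1.12 on the negative arrays, a log2 change of -0.33 that did not pass the test (adjusted p = 0.0974) but did without positive replicate 2 (adjusted p = 0.0429). With the brightest probe standing for each of the 67 genes, 43 were higher and 4 lower as deposited.

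**Figure D3:**
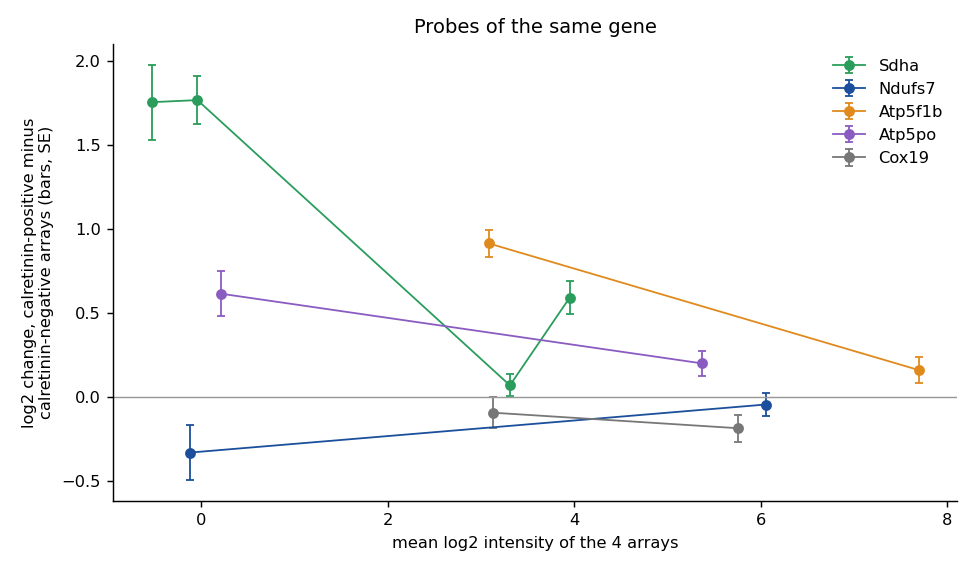
Log2 change (calretinin-positive minus calretinin-negative arrays) of each tested probe against its mean log2 intensity, with SE bars and lines joining probes of the same gene, for the 5 genes with several tested probes. The Sdha probes span 0.07 to 1.77, and the dimmer probes of Atp5f1b and Atp5po lie above the brighter ones.

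Assembly factors that share the prefixes gave 6 higher and 0 lower of 11 tested probes as deposited (54.5% higher, against 40.8% of all tested probes), and 3 higher and 3 lower after quantile normalization (27.3% each, against 33.2% and 29.1%). Most of the 11 had a mean log2 intensity above 4, where 55.0% of all tested probes were higher as deposited. Cox16, a complex IV assembly factor, had 10.01 and 10.97 on the positive arrays, against 5.49 and 5.21 on the negative arrays, a log2 change of 0.97 ± 0.07 (adjusted p = 1.15e-06) and 0.87 after quantile normalization. Ndufaf5, a complex I assembly factor, had 123.5 and 109 on the positive arrays, against 73.2 and 66.5 on the negative arrays, a log2 change of 0.74 and 0.52 after quantile normalization. Cox18, which helps insert a core subunit of complex IV into the membrane, had 38.3 and 37.4 on the positive arrays, against 29.6 and 27.9 on the negative arrays, a log2 change of 0.40. These 3 genes were higher under all 3 scalings. Cox14, Cox15 and Ndufaf7 were higher as deposited, with log2 changes of 0.26, 0.28 and 0.20, and did not pass the test after quantile normalization.

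The other factors did not pass the test as deposited. Cox19, a factor for the copper centres of complex IV, had 50.2 and 51.5 on the positive arrays, against 61.9 and 54.2 on the negative arrays, at its brighter probe. Its log2 change was -0.19 as deposited and -0.47 after quantile normalization (adjusted p = 0.000529), and its dimmer probe had -0.10. Without negative replicate 2 the brighter probe passed as lower (adjusted p = 0.0140). Ndufaf8 had 63.2 and 46.7 on the positive arrays, against 54.8 and 61.5 on the negative arrays, with overlapping groups, and it passed as lower without positive replicate 1 (log2 change -0.31, adjusted p = 0.0125). Cox7a2l, a factor for the joining of complexes III and IV, had 52.7 and 58.3 on the positive arrays, against 55.6 and 50.9 on the negative arrays, also with overlapping groups, and a log2 change of 0.06 that was -0.23 after quantile normalization (adjusted p = 0.0236). Ndufaf3 had a log2 change of 0.10. Ndufaf4, Cox11 and both Cox20 probes were below the dim limit in their mean and were not tested.

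**Figure D4:**
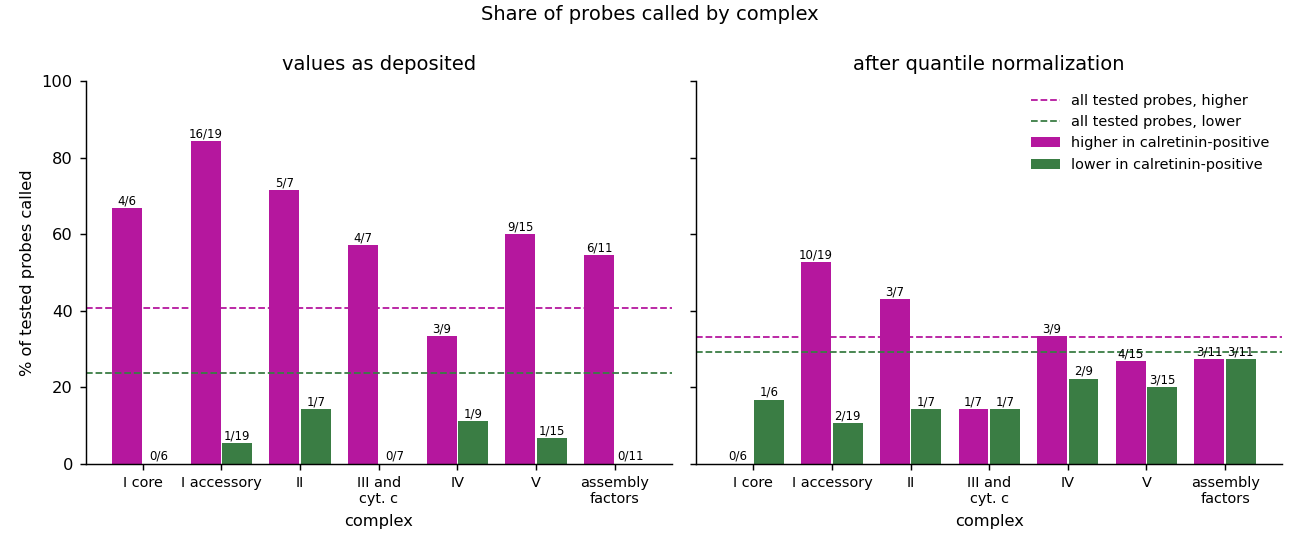
Share of tested probes called higher (first bar) or lower (second bar) on the calretinin-positive arrays for each complex, as deposited (left) and after quantile normalization (right), with counts above the bars. Dashed lines give the shares over all tested probes, 40.8% higher and 23.8% lower on the left and 33.2% and 29.1% on the right. The complex I accessory subunits stand at 84.2% higher on the left and 52.6% on the right.

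The scaling moved bright probes most. A large part of the members were bright probes: 33 of the 74 lay above the 90th percentile of mean level of all tested probes, an intensity of 51.3. Brightness of a probe is not a measure of abundance between genes. Of the 51 members with a mean log2 intensity above 4, 35 were higher and 1 lower as deposited, against 55.0% and 11.0% of the 5046 tested probes in that range. After quantile normalization 12 were higher and 10 lower, against 32.1% and 25.4%. The median log2 change of these members was 0.26 as deposited, against 0.23 for all tested probes of that range, and after quantile normalization 0.03, against 0.01. The 23 dimmer members gave 12 higher (52.2%) and 3 lower (13.0%) under either scaling, with medians of 0.43 as deposited and 0.33 after quantile normalization. Over all tested probes of any level, 40.8% were higher and 23.8% lower as deposited, and 33.2% and 29.1% after quantile normalization. Median changes of all tested probes in the ranges up to 4 lay between -0.002 and 0.12 as deposited. After quantile normalization they lay between 0.01 and 0.03. Of the 12 higher members, 3 were probes of Sdha.

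**Figure D5:**
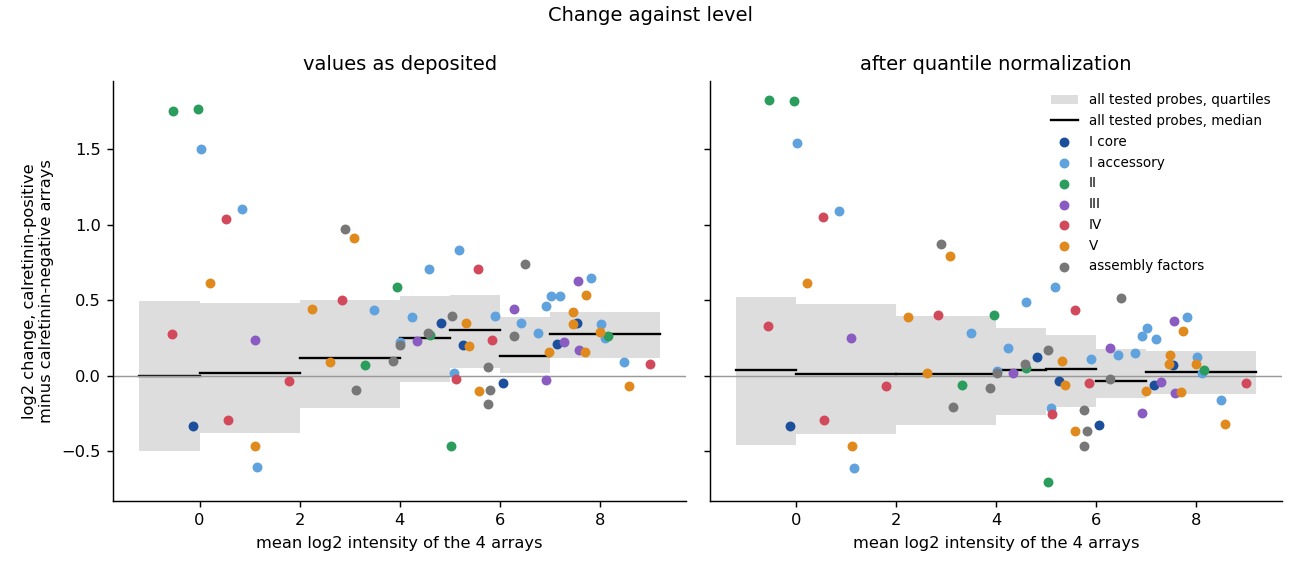
Log2 change of each tested member (calretinin-positive minus calretinin-negative arrays) against its mean log2 intensity over the 4 arrays, as deposited (left) and after quantile normalization (right), coloured by complex. Grey bands and black lines are the quartiles and the median of all tested probes in each range of level. In the ranges above 4 these medians lie between 0.13 and 0.30 on the left and between -0.04 and 0.04 on the right.

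Other lists of mitochondrial and sugar metabolism genes were read against the same shares over all tested probes, 40.8% higher and 23.8% lower as deposited and 33.2% and 29.1% after quantile normalization. In the citric acid cycle and pyruvate dehydrogenase list, 15 of 22 tested probes were higher (68.2%) and 3 lower as deposited, and 11 were higher (50%) and 3 lower after quantile normalization. Pdha1, the E1 alpha subunit of pyruvate dehydrogenase, had 11.6 and 10.8 on the positive arrays, against 4.29 and 3.88 on the negative arrays, a log2 change of 1.46. Cs, citrate synthase, had 20.4 and 22.3 on the positive arrays, against 11.8 and 10.7 on the negative arrays, a log2 change of 0.93. Its other probe had 17.4 and 18.0 on the positive arrays, against 15.2 and 14.6 on the negative arrays, a log2 change of 0.25, and 0.05 after quantile normalization (adjusted p = 0.486). For proteins of the mitochondrial ribosome, which translates the subunits encoded by mitochondrial DNA, 41 of 57 probes were higher (71.9%) and 2 lower as deposited, and 26 were higher (45.6%) and 5 lower after quantile normalization. Mrpl50 had 3.66 and 3.27 on the positive arrays, against 1.12 and 0.959 on the negative arrays, and Mrps15 had 15.8 and 17.3, against 8.81 and 8.76, with log2 changes of 1.74 and 0.91. Their other probes gave less: that of Mrpl50 had 14.7 and 12.9 on the positive arrays, against 11.7 and 11.5 on the negative arrays (log2 change 0.25, and 0.09 after quantile normalization, adjusted p = 0.353), and that of Mrps15 had 3.41 and 3.65, against 3.53 and 3.30, with overlapping groups (0.05, adjusted p = 0.618).

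The mitochondrial carriers and porins had 8 higher (72.7%) and 1 lower of 11 tested probes as deposited, and 4 higher (36.4%) and 1 lower after quantile normalization. Slc25a27, an uncoupling protein known from brain, had 5.39 and 5.33 on the positive arrays, against 2.79 and 2.75 on the negative arrays, and Vdac1, the main porin of the outer membrane, had 175 and 167, against 115 and 119. Assembly factors outside the symbol rule had 9 higher (52.9%) and 1 lower of 17, and 6 higher (35.3%) and 3 lower after quantile normalization. Sco1, a copper chaperone of complex IV, had 35.2 and 36.8 on the positive arrays, against 16.5 and 16.3 on the negative arrays, and Surf1, another complex IV assembly factor, had 41.6 and 38.1, against 25.2 and 23.7. Regulators of mitochondrial biogenesis had 10 higher (55.6%) and 2 lower of 18, and 9 higher (50%) and 5 lower after quantile normalization. Tfb2m, a mitochondrial transcription factor, had 8.81 and 8.81 on the positive arrays, against 4.82 and 4.34 on the negative arrays. Polg, the mitochondrial DNA polymerase, had 1.32 and 1.27 on the positive arrays and lay below the dim limit on both negative arrays, with 0.258 and 0.317.

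Glycolysis had 19 higher (55.9%) and 4 lower of 34 tested probes as deposited, and 10 higher and 6 lower after quantile normalization (29.4% higher, against 33.2% of all tested probes). The 3 probes of Pkm, pyruvate kinase, disagreed. The brightest had 377 and 478 on the positive arrays, against 435 and 469 on the negative arrays, with overlapping groups, a log2 change of -0.09 (adjusted p = 0.504) and -0.28 after quantile normalization (adjusted p = 0.0278). The others had 11.5 and 11.2 on the positive arrays, against 5.66 and 5.36 on the negative arrays (log2 change 1.04), and 9.57 and 9.33, against 6.21 and 5.24 (0.73). Ldha, the lactate dehydrogenase subunit linked to lactate production, had 3.05 and 3.31 on the positive arrays, against 6.67 and 6.43 on the negative arrays, a log2 change of -1.04.

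The values of 37 of the 74 tested members rest on names that were moved along the table. Early names were read at their own row and gave 24 higher and 2 lower of 37, and late names, read 5 array positions later, gave 23 higher and 2 lower of 37. The move was checked with 54 late spots of repeated control probes. Their log2 values correlated with those of the early copies at r = 0.9989 when read 5 positions later and at r = 0.1427 at their own position, a description across spots of the same arrays. Moving names by 5 table rows instead, which differs where an ID among the next 5 positions is not listed in the table used here, changes 6 late member spots. Ndufv3 then had 63.0 and 61.4 on the positive arrays, against 36.1 and 35.9 on the negative arrays, and Atp5f1c had 0.108 and 0.0478, against 1.52 and 1.40. For the 6 control spots in that situation, 6 lay within 0.5 of their early copies on the log2 scale when read by position and 1 when read by row.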

How the data were processed

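Values are intensities on a linear scale from the authors' deposited value table. How they were scanned, background-corrected and normalized: not given in the sources used here. Medians of the 4 arrays lay near 0.99. The values were not centred by gene, since levels differed widely between probes: Cox6a1 had 494 to 554 over the 4 arrays and Cox11 0.0676 to 0.129. Missing-value codes (10 to 39 per array) were left missing, and values at or below 0 (532 to 776) were set to the 1st percentile of each array's values above 0, then log2 was taken. Repeated spots of a control probe were averaged.

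Names came from the platform annotation (16677 probes with 1 symbol, 163 with several, 18286 with none), updated by gene ID through a RefSeq rat table, which held 16649 of them. Late names were moved by 5 array positions in place of the 5 table rows first planned. Members with several symbols (6) were left out. No probe coordinates are given, since no build is named.

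Probes with a mean log2 value under the 40th percentile (intensity 0.455) were left out. The other 20997 were fitted with limma 3.58.1 (R 4.3.3; lmFit, then eBayes with a trend). Tests were two-sided at 0.05 after Benjamini-Hochberg adjustment over all of these probes. Adjusted p-values and SEs are from this fit unless another scaling or a left-out array is named beside them. Changes are positive minus negative, n = 2 arrays each. The fit was tested on simulated data. Named are, per complex, the 3 higher and the 3 lower probes with the smallest p, all of complex II, isoform pairs, genes with several probes and, in other lists, the 2 with the smallest p. Further members, and other probes of those named, were added after their values were seen, to account for the members. Members and lists were chosen with earlier results of these data known. Arrays with the same number showed no shared deviation (r = -0.00257 over 20997 probes), so they were not paired. Alternatives were quantile and cyclic loess normalization, other filters, floors, name readings and variance priors, a replicate block and leaving out each array. Figures were drawn with matplotlib 3.10.9.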

Additional observations from a re-analysis of the deposited data

How the results depend on the processing

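As deposited, 47 members were higher and 4 lower, with 20 higher in complex I, 5 in II, 4 in III, 3 in IV and 9 in V, and 102 higher and 13 lower in the related lists. After quantile normalization the counts were 24 and 13, with 10 in complex I, 3 in II, 1 in III and 4 in V, and 66 and 23 in the related lists. After cyclic loess they were 24 and 14, with 10, 3, 1 and 4, and 60 and 26. These normalizations make the 4 distributions alike, and which scaling is nearer to the RNA levels was not tested. Testing each probe on its own spread gave 18 higher and 2 lower members, 7 in complex I, 2 in II, 1 in III and 3 in V, and 45 and 4 in the related lists. In that fit 4492 of all 20997 tested probes were higher and 2593 lower. With early names alone, which leaves fewer members, 24 were higher and 2 lower, with 8 in complex I, 1 in IV and 5 in V, and 56 higher in the related lists. Late names at their own row gave 31 higher, 11 in complex I and 3 in II, and 23 lower in the related lists. Moved by 5 table rows, the reading first planned, they gave 44 higher and 4 lower. Reading by array position took its place with the values of the repeated control spots known. The 60th percentile filter gave 3 in complex II and 7 lower in the related lists, and the brightest probe of each gene gave 3 in complex II. Leaving out each array in turn gave 42 to 48 higher and 3 to 5 lower members, 17 to 20 in complex I, 3 to 5 in II, 2 to 5 in III, 3 to 4 in IV and 7 to 9 in V, and 85 to 95 higher and 9 to 13 lower in the related lists. Without negative replicate 2, complex II had 3 and complex III 2. The arrays share only a replicate number, and with the replicate block 48 members were higher and 5 lower. Of the 74 members, 15 turned sign after quantile normalization, 5 of them called as deposited (Ndufs1, Ndufv1, Cyc1, Cox14 and the brighter Atp5po probe), and 18 after cyclic loess, 7 of them called (Ndufa5, Ndufs1, Ndufv1, Sdhb, Cyc1, Atp5pd and that Atp5po probe). Among the genes named by the rule, values after quantile normalization included Ndufv1 (-0.0384), Cyc1 (-0.0434), the brighter Atp5po probe (-0.0586) and, from a value that had not passed the test, Cox7a2l (-0.23). After cyclic loess they included Ndufv1 (-0.0217), Sdhb (-0.0418), Cyc1 (-0.0581), Cox6a1 (-0.248) and Atp5po (-0.0297), and with late names at their own row the sign turned for Ndufs4 (-0.25), Cycs (-0.50) and Cox4i1 (-0.67), where another probe is read. Precision is limited by 2 arrays per group, and background signals were not used here.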
